A study of Homo sapiens with 3 samples.

Results

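The 47 genes described here encode the main DNA damage repair factors of the human cell. They were taken by symbol from the gene lists of a table of chromatin regions that assigned 21948 genes in all, and each of the 47 had at least 1 region. They comprised 16 genes of homologous recombination, 9 Fanconi anaemia genes, 3 mismatch repair genes, 6 end-joining genes, 4 damage-signalling kinases, 7 nucleotide excision genes and 2 genes of single-strand break repair. The members had 580 of the 67969 regions in the table, and no region was assigned to more than 1 of them. Of these regions 97 touched a member's promoter window, 408 lay inside a member outside that window and are called gene body regions below, and 14 upstream and 61 downstream regions lay further out.

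The cells were MDA-MB-231 LM2, a lung-seeking, highly metastatic derivative of a triple-negative breast cancer line, kept in culture without a stated treatment. One chromatin immunoprecipitation (ChIP) library was made with an antibody to histones H3.1 and H3.2 (4 µg on 30 µg of chromatin) and 1 with an antibody to H3.3 (6 µg on 30 µg). A further library, of input DNA, was not analysed here. Both ChIP columns are headed with the name of a GFP hairpin, of which the sample labels say nothing, so it is unsettled whether the cells held one. Because there was 1 library per antibody, no difference was tested and no p-value is given. No source used here states the scaling between both libraries, so every ratio is relative to the deposited heights.

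H3.1 and H3.2 are placed on DNA mainly as it is copied, while H3.3 is placed throughout the cell cycle, at active promoters and at sites where nucleosomes turn over. Homologous recombination repairs a broken chromosome from its sister copy, end joining ligates the broken ends directly, the Fanconi anaemia proteins open up DNA cross-links, and mismatch and nucleotide excision repair remove wrongly paired or damaged bases. Many of these genes are expressed in proliferating cells and start in CpG islands.

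Repair genes leaned to H3.3 at most starts, with a lower median than genes in general, and to H3.1/H3.2 along most bodies. Each region has a mean pileup height for each library, and its log2 ratio was log2((H3.3 + 1)/(H3.1/H3.2 + 1)), so that values above 0 lean to H3.3. In the region nearest the gene's start the median log2 ratio was 0.50 over 45 members, with a 95% order-statistic interval over genes of 0.21 to 1.02, against 0.89 over 17529 genes. That interval held 0.89, and the difference was not tested. Of these 45 members 15 lay below 0, where 22.5% of all genes did. Along the body, taken as the median over a gene's body regions, the median was -0.85 (-0.98 to -0.57) over 40 members, against 0.11 over 10592 genes. The median body height of member regions was 7.98 (H3.1/H3.2) and 4.23 (H3.3), against 7.29 and 6.33 in the body regions of all genes.

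A plain fold of 1.5 in mean height was used to count genes. At promoters 22 of 45 members passed it toward H3.3, where 63.8% of all genes did, and 9 passed it toward H3.1/H3.2, where 11.8% of all genes did. In bodies 28 of 40 members passed it toward H3.1/H3.2, where 36.4% of all genes did, and 4 passed it toward H3.3, where 43.0% did. Body medians lay below 0 in 36 of 40 members, where 48.1% of all genes did. With a gene's promoter taken as the mean over all its promoter regions instead of the nearest one, the members' promoter median was 0.19 (-0.14 to 0.54), and with regions of at least 1000 bases it was 0.28 (-0.21 to 0.63), so that both intervals held 0.

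Within single genes the promoter stood above the body in 35 of 39 members with both values, where 71.2% of all genes did, and in XRCC5, counted among them, both values rounded to -0.71. The median difference was 1.19 (0.65 to 1.91) on the log2 scale, against 0.49 over all genes. In 25 members the promoter leaned to H3.3 and the body to H3.1/H3.2, where 34.3% of all genes had that pattern. In 10 members both leaned to H3.1/H3.2, in 2 both leaned to H3.3, and in 2, CHEK2 and RAD51B, the signs were the other way round. MRE11A and WRN had no promoter region, and WRN, RAD50, XRCC3, FANCE, FANCF, FANCG and LIG4 had no body region. The promoter regions of XRCC3 and FANCG were 19199 and 8799 bases long and called in both ChIPs. Regions so called covered 99.7% and 100% of these genes, so their bodies have no value of their own.

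**Figure D1:**
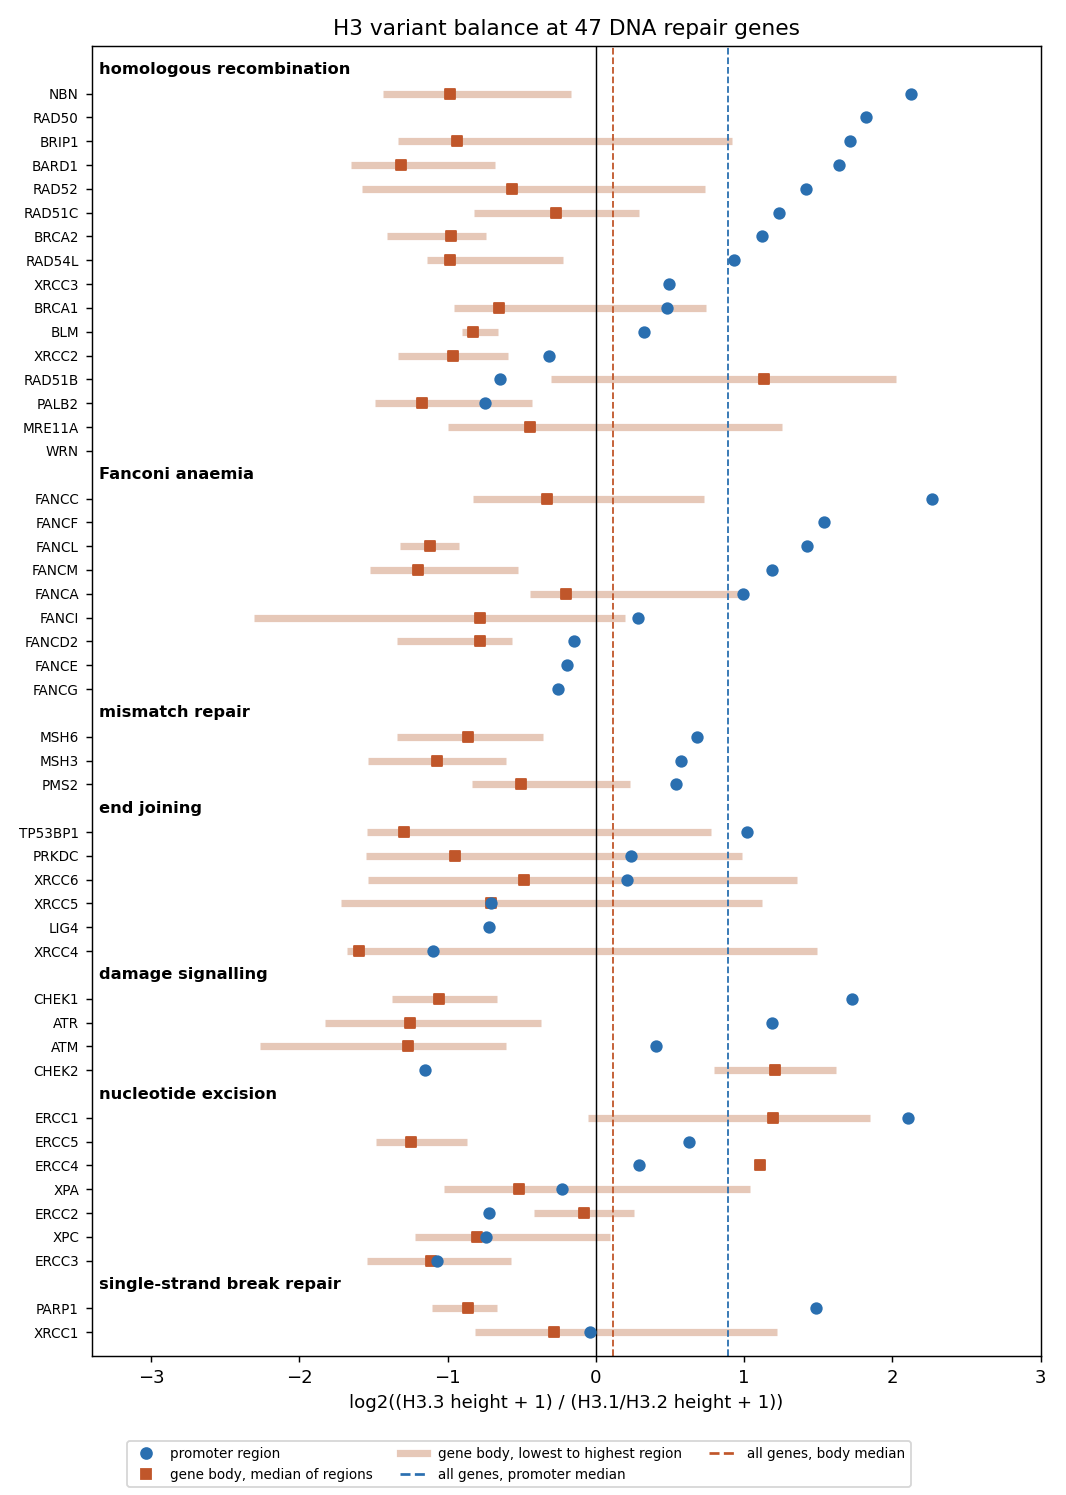
Log2 of H3.3 relative to H3.1/H3.2 (x axis) for each of the 47 genes (y axis), with circles for the promoter region, squares for the median of body regions, bars from the lowest to the highest body region, and dashed lines for the medians of all genes. Most circles lie right of 0 and most squares left of it, and the members' body median of -0.85 lies left of the all-gene body median of 0.11.

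With regions placed by their centres, the members' median leaned to H3.3 only at the start. In 21 member regions centred within 500 bases of a start the median H3.3 height was 11.6 and the H3.1/H3.2 height 5.59, and the median log2 ratio of 1.02 was near the 1.06 of all genes at that place. A long region over a start can be centred further out, as in ATM (999 bases), and then enters a flanking bin. Over all 45 nearest promoter regions the median was 0.50 against 0.89, and for those of 2000 bases or more -0.04 against 0.69. In the 18 member regions centred between 3000 and 500 bases upstream the median log2 ratio was already -0.14, against 0.93 for all genes. Further out, between 10000 and 3000 bases upstream, it was -0.56 over 34 regions, against 0.58. Between 500 and 3000 bases into the gene it was -0.08 over 23 regions against 0.68, and between 3000 and 10000 bases it was -0.86 over 50 regions against -0.22.

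From there to 100000 bases the members' medians stayed between -0.92 and -0.81, and those of all genes between -0.49 and -0.39. Without PRKDC and ATM the members' medians were -0.83 between 10000 and 20000 bases, -0.75 up to 50000 and -0.71 up to 100000. Beyond 100000 bases the members' median of -0.75 over 69 regions came from 6 genes and was -0.13 over the 32 regions left without PRKDC and ATM. Of 28 members with several promoter regions, the region nearest the start was the highest in ratio in 21, where 51.7% of such genes had that order. The nearest region exceeded the median of the others by a median of 0.64 in members and 0.20 in all genes.

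**Figure D2:**
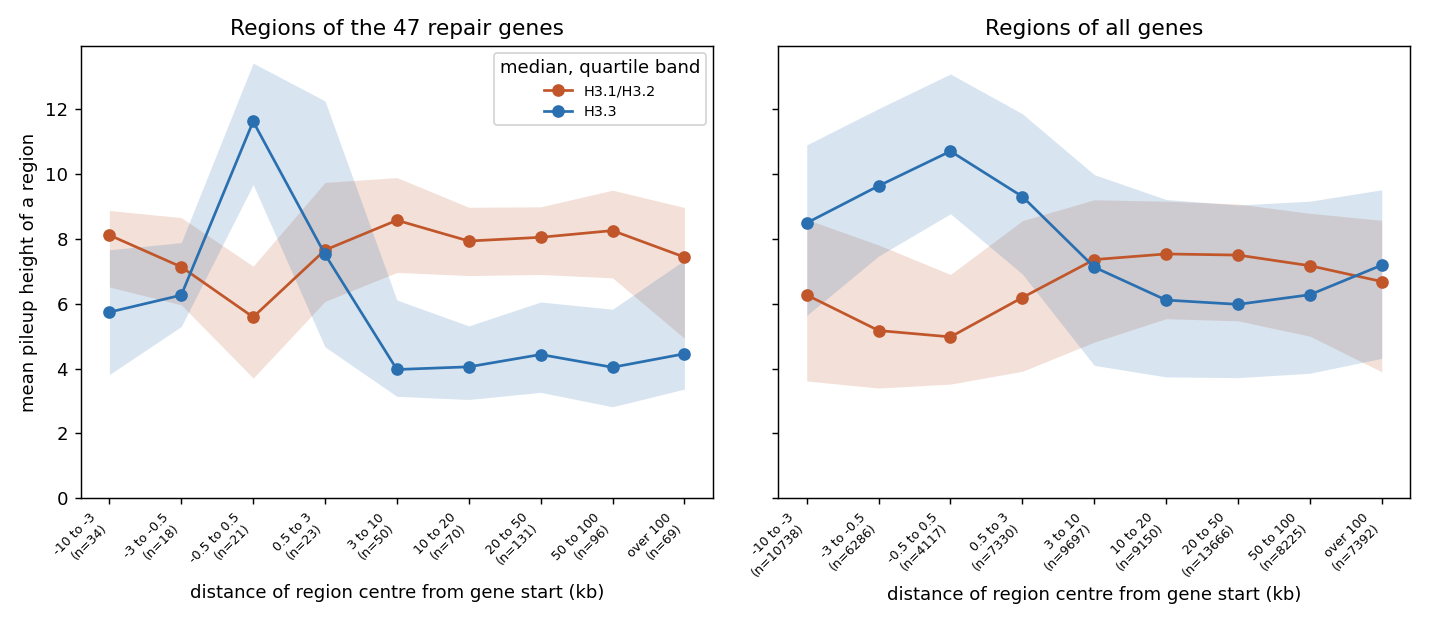
Median mean pileup height (y axis) of H3.1/H3.2 and H3.3 by the distance of a region's centre from the gene's start in kb (x axis, uneven bins with the number of regions), for the 47 repair genes (left) and all genes (right), with bands from the lower to the upper quartile. In repair genes the H3.3 median falls from 11.6 at the start to 3.97 between 3 and 10 kb, while the H3.1/H3.2 median rises from 5.59 to 8.58.

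The 14 promoter regions of homologous recombination genes had a median log2 ratio of 1.03, from -0.75 to 2.13. Of these 11 lay above 0 (78.6%, against 77.5% of all genes), 8 passed 1.5-fold toward H3.3 (57.1%, against 63.8%) and 2 toward H3.1/H3.2 (14.3%, against 11.8%), shares near those of all genes. NBN, whose product nibrin tethers the break-sensing MRE11 complex, was the highest. Its promoter region had mean heights of 3.14 (H3.1/H3.2) and 17.1 (H3.3), a 5.44-fold excess with a 95% counting interval of 3.17 to 9.59. RAD50, the long coiled-coil ATPase of the same complex, had heights of 5.59 and 22.3 (3.98-fold, 2.72 to 5.93), the highest H3.3 level among the member promoters. MRE11A, the nuclease of the complex, is described with the gene starts further on.

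BARD1 and BRIP1, whose products bind that of BRCA1, had higher ratios than BRCA1. BARD1, with which BRCA1 forms a ubiquitin ligase, stood at 4.23 (H3.1/H3.2) and 15.3 (H3.3), 3.62-fold (2.22 to 5.93), and the helicase gene BRIP1 at 3.40 and 13.4 (3.95-fold, 2.60 to 6.35). BRCA1 stood at 9.41 and 13.5 (1.44-fold, 1.11 to 1.87) in a region called in both ChIPs and shared with NBR2, which starts in the opposite direction. The 3 other promoter regions of BRCA1 were at log2 ratios of -0.26, -0.15 and -0.04, below the 0.48 of the region at its start. BRCA2, the tumour suppressor that PALB2 binds, stood at 5.08 and 12.2 (2.40-fold, 1.70 to 3.51).

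PALB2, the bridge between BRCA1 and BRCA2, was the lowest of the class. Its region of 7599 bases (chromosome 16, 23637400 to 23644999), shared with DCTN5, had heights of 8.61 (H3.1/H3.2) and 4.73 (H3.3), 0.549-fold (0.449 to 0.667). The other PALB2 promoter regions were lower still, at log2 ratios of -1.12 and -1.67. Among further genes of the class, RAD51C leaned to H3.3 (2.59-fold, 1.69 to 4.10). XRCC3 did so less (1.44-fold, 1.34 to 1.54), in a region of 19199 bases assigned also to KLC1 and ZFYVE21. XRCC2 stood at 0.784-fold (0.507 to 1.19), and RAD51B leaned to H3.1/H3.2. The RAD51B region, shared with ZFYVE26 and without a CpG island, had heights of 8.85 and 5.29 (0.598-fold, 0.490 to 0.728). RAD52, which anneals single strands, the DNA motor gene RAD54L and the helicase gene BLM had log2 ratios of 1.42, 0.93 and 0.33.

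Bodies of recombination genes lay below 0 in 12 of 13 members, where 48.1% of all gene bodies did, with a median log2 ratio of -0.94 and a range from -1.31 to 1.13. BARD1 was the lowest, with 5 regions from -1.65 to -0.68, length-weighted mean heights of 6.86 (H3.1/H3.2) and 2.12 (H3.3), and a promoter 2.95 above its body. NBN had the largest difference of all members, 3.11, between its promoter and 4 body regions from -1.43 to -0.17. All 7 body regions of BRCA2 lay between -1.41 and -0.74, and 8 of 10 in BRCA1 lay below 0.

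RefSeq promoter sequences (GRCh38.p14, 250 bases before to 50 after the start, 5′ to 3′ on the gene's strand) are given for members from both sides of the range. Each is shorter than the region whose ratio was measured, which spanned 6199 bases in XRCC4 and 6799 in ERCC3. FANCC and XRCC4 had the highest and lowest ratio among members whose region covered the RefSeq start. RAD50 and CHEK1 stand for the H3.3 side and ERCC3 for the H3.1/H3.2 side. Capitals mark matches, on either strand, to short motifs: TTCCCGC and TTGGCGC (E2F), TTTGAA (the cell cycle homology region), CCAAT (the box bound by NF-Y), CCGGAAG (ETS), GGGCGG (GC box) and CATGCGC (NRF1). Neighbouring matches can run together, as the GC boxes in FANCC do.
FANCC: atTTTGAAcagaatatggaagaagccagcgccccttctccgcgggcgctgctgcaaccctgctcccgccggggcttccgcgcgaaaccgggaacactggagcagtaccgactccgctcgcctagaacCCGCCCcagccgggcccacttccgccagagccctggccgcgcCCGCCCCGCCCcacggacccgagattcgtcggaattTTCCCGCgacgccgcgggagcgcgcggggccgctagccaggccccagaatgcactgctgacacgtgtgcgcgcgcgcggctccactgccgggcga
RAD50: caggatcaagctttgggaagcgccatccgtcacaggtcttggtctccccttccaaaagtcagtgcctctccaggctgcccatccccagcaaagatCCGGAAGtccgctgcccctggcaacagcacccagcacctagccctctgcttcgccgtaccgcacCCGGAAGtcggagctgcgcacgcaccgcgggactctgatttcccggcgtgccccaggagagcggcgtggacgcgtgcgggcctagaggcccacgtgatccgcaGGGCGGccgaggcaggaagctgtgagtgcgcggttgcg
CHEK1: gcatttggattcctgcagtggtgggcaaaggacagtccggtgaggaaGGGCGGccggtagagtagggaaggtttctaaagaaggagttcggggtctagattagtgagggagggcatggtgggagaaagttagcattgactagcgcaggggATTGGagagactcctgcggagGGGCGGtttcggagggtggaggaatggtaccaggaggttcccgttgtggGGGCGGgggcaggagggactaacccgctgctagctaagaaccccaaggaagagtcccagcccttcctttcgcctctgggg
XRCC4: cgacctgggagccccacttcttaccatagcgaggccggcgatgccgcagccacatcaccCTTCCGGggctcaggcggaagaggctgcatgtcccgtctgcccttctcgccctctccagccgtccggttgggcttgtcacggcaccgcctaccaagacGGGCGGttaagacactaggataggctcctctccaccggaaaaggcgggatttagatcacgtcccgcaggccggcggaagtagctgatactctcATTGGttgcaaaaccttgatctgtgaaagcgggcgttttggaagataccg
ERCC3: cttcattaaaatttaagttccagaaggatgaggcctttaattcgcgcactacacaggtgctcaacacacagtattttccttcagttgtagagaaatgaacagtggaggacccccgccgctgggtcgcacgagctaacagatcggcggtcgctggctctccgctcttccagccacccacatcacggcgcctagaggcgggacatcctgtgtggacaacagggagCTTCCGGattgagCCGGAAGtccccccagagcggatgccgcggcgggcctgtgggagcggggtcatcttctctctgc

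These lie at chr9:95317660-95317959 on the minus strand (FANCC), chr5:132556727-132557026 plus (RAD50), chr11:125625974-125626273 plus (CHEK1), chr5:83077297-83077596 plus (XRCC4) and chr2:127294095-127294394 minus (ERCC3). They held 41, 27, 12, 24 and 20 CG dinucleotides in that order, so CHEK1 leaned to H3.3 with fewer than either promoter that leaned to H3.1/H3.2. An ETS match stood in RAD50 and in both XRCC4 and ERCC3, and an E2F match in FANCC alone of the 5.

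Fanconi anaemia promoters fell into an H3.3-leaning set and a balanced set. Of 9 promoters 5 passed 1.5-fold toward H3.3 (55.6%, against 63.8% of all genes) and none toward H3.1/H3.2 (against 11.8%), with a median log2 ratio of 0.99 and a range from -0.26 to 2.27. That median turned to -0.14 over the 8 genes with a promoter region of at least 1000 bases, and it was 0.28 with the mean over all promoter regions. FANCC, of the core complex that recognises cross-links, had the highest log2 ratio of all 45 members, although the plain fold of ERCC1 was slightly higher at 6.03. FANCC had heights of 3.195 (H3.1/H3.2) and 19.2 (H3.3), 6.01-fold (3.72 to 10.2). The ratio fell within its own promoter window, from 2.27 at the start to 0.75 and -0.08 in the next 2 regions. FANCF, FANCL, the ligase subunit, and FANCM, the translocase that anchors the complex, had folds of 3.42 (2.24 to 5.29), 3.21 (1.68 to 7.31) and 2.48 (1.503 to 4.21), and FANCA one of 2.17 (0.947 to 4.99), from 10 and 21 tags.

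In the balanced set neither antibody exceeded the other by 1.5-fold. FANCG was the lowest, with heights of 14.1 (H3.1/H3.2) and 11.6 (H3.3) over 8799 bases shared with VCP and PIGO (0.825-fold, 0.727 to 0.935). FANCE had 14.3 and 12.3 (0.863-fold, 0.528 to 1.42). FANCD2 and FANCI, the pair that is ubiquitinated on damage, had 12.0 and 10.8 (0.896-fold, 0.743 to 1.09) and 7.17 and 8.93 (1.25-fold, 1.04 to 1.49). All 4 regions were called in both ChIPs, and all 5 of the H3.3-leaning set in H3.3 alone.

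All 6 Fanconi genes with body regions had body medians below 0 (against 48.1% of all genes), from -1.20 in FANCM to -0.20 in FANCA. FANCD2 had 12 body regions, all called in H3.1/H3.2 alone and all between -1.34 and -0.57. In FANCA, by contrast, 11 of 16 body regions were called in both ChIPs, with length-weighted mean heights of 8.92 (H3.1/H3.2) and 8.59 (H3.3), 0.964-fold (0.911 to 1.02).

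The 3 mismatch repair promoters lay close together, and each passed 1.5-fold toward H3.3, where 63.8% of all genes did. MSH6, which recognises single mispairs, had heights of 6.68 (H3.1/H3.2) and 11.3 (H3.3), 1.70-fold (1.19 to 2.41). MSH3, which recognises longer loops, had 9.06 and 13.9 (1.54-fold, 0.898 to 2.69) and the nuclease gene PMS2 had 7.16 and 10.9 (1.52-fold, 1.06 to 2.22), shared with AIMP2. The MSH3 region was 599 bases long and lay between promoter regions at log2 ratios of -0.56 and -1.04, and the PMS2 region lay beside one at -0.56. With the mean over all promoter regions the median of the 3 genes changed from 0.57 to -0.0096. Their bodies had medians of -0.86 (MSH6), -1.07 (MSH3) and -0.50 (PMS2), and 11 of their 12 body regions lay below 0.

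End-joining promoters were split between both sides. Of 6 promoters 3 passed 1.5-fold toward H3.1/H3.2 (against 11.8% of all genes) and 1 toward H3.3 (against 63.8%), and the median log2 ratio was -0.25, from -1.10 to 1.02. With the highest instead of the mean height of each region the median was 0.47. XRCC4 and LIG4, the scaffold and the enzyme of the ligase that seals the ends, were both on the H3.1/H3.2 side. XRCC4 was the lowest, with heights of 8.38 and 3.39 (0.404-fold, 0.315 to 0.517) over 6199 bases shared with TMEM167A and SCARNA18, and LIG4 had 7.66 and 4.25 (0.555-fold, 0.337 to 0.920) in a region shared with ABHD13.

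The end-binding Ku subunits differed. XRCC5 stood at 6.84 (H3.1/H3.2) and 3.81 (H3.3), 0.556-fold (0.324 to 0.941) and XRCC6 at 6.82 and 8.04 (1.18-fold, 0.780 to 1.74). PRKDC, the kinase that Ku recruits, was called in both ChIPs at 6.98 and 8.43 (1.21-fold, 0.913 to 1.58), in a region shared with the replication helicase gene MCM4. TP53BP1, which shields ends from resection, was the highest at 3.85 and 8.84 (2.29-fold, 1.42 to 3.65). With RefSeq starts the class median was -0.63, since the region then nearest to XRCC6 was one at -0.56. Bodies of the 5 end-joining genes with a value all lay below 0 (against 48.1% of all genes), from -1.59 in XRCC4 to -0.49 in XRCC6, although 1 of the 3 XRCC4 body regions stood at 1.49.

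The classes thus overlapped at promoters. The mismatch repair range of 0.54 to 0.68 lay wholly inside those of homologous recombination (-0.75 to 2.13), Fanconi anaemia (-0.26 to 2.27) and end joining (-1.10 to 1.02), and with 1 library per antibody the differences between class medians of 0.57, 1.03, 0.99 and -0.25 were not tested. Bodies were closer together, with class medians of -0.94 for homologous recombination, -0.78 for Fanconi anaemia, -0.86 for mismatch repair and -0.95 for end joining. Body regions called in H3.1/H3.2 alone made up 73.0%, 69.5%, 83.3% and 83.8% of each class, against 50.6% of the body regions of all genes. These shares count regions and not genes, so a gene with many regions weighs more. PRKDC alone supplied most of the end-joining regions (63, of which 59 were so called). MSH6 supplied 7 of the 12 mismatch repair regions, all 7 so called.

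The kinases that signal damage had a median step between promoter and body of 2.06, the largest of the 7 class medians. CHEK1, the effector of the replication checkpoint, had promoter heights of 4.51 (H3.1/H3.2) and 17.2 (H3.3), 3.82-fold (2.78 to 5.38), while 3 regions further upstream had log2 ratios from -0.73 to -0.28. Its 7 body regions lay between -1.38 and -0.67, and the promoter exceeded the body by 2.78. ATR, which responds to single-stranded DNA, stood at 5.13 and 13.0 (2.53-fold, 1.53 to 4.28), and all 14 of its body regions were below 0. ATM, which responds to breaks, stood at 7.30 and 9.99 (1.37-fold, 1.12 to 1.67) in a region shared with NPAT, an activator of histone genes. All 36 ATM body regions were called in H3.1/H3.2 alone, with length-weighted mean heights of 8.34 and 3.02 (0.362-fold, 0.331 to 0.395).

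CHEK2, the kinase downstream of ATM, ran the other way. Its nearest promoter region had heights of 8.37 (H3.1/H3.2) and 3.21 (H3.3), 0.384-fold (0.166 to 0.924, from 22 and 9 tags), lay 894.5 bases from the start and held no CpG island. Its 2 body regions had log2 ratios of 0.80 and 1.62, and the promoter lay below the body, with a difference of -2.36, the lowest of all members.

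Nucleotide excision genes had 4 of 7 promoters below 0, where 22.5% of all genes did, with a median of -0.23. ERCC3 and ERCC2, the helicases of the repair and transcription factor TFIIH, stood at 10.5 and 4.47 (0.427-fold, 0.347 to 0.524) and at 8.69 and 4.88 (0.561-fold, 0.319 to 0.975, 553.5 bases from the start). The damage sensor XPC stood at 10.4 and 5.84 (0.560-fold, 0.433 to 0.719) in a region shared with LSM3. The scaffold gene XPA (0.834-fold, 0.616 to 1.11) and the nuclease genes ERCC4 (1.25-fold, 0.890 to 1.79) and ERCC5 (1.64-fold, 1.08 to 2.55) were nearer to balance. ERCC1, partner of the ERCC4 nuclease, was the highest at 1.93 and 11.6 (6.03-fold, 3.28 to 12.3). ERCC4 had a promoter below its body, with a difference of -0.82, but that body value came from 1 region of 399 bases.

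Both single-strand break genes had a body median below 0. PARP1, the sensor of nicks, had promoter heights of 3.84 and 12.5 (3.27-fold, 1.93 to 5.49), and its 8 body regions lay between -1.10 and -0.67. The scaffold gene XRCC1 had 7.77 and 7.54 (0.970-fold, 0.731 to 1.29), and its body had a regional median of -0.28 but a length-weighted fold of 1.31 (1.16 to 1.49).

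In several long genes nearly all body regions leaned the same way. PRKDC had 63 body regions over 109737 bases, of which 61 were below 0 and 59 were called in H3.1/H3.2 alone, with length-weighted mean heights of 8.76 and 4.15 (0.473-fold, 0.449 to 0.499). BRIP1 had 23 of 24 body regions below 0, and XRCC5 had 19 of 22. Of 29 members with at least 5 body regions, 15 had every one below 0, where 31.2% of such genes did. Over all members 313 of 408 body regions (76.7%) carried the H3.1/H3.2 call only, a share of 70.6% without PRKDC and ATM, against 50.6% of the body regions of all genes.

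RAD51B and ERCC1 were the exceptions among members with many body regions. RAD51B, whose gene spans 863318 bases, had a body median of 1.13 on the log2 scale, with 14 of 16 body regions called in H3.3 alone and length-weighted mean heights of 4.44 (H3.1/H3.2) and 11.02 (H3.3), 2.48-fold (2.28 to 2.71). The first of them was centred 320220 bases into the gene, and the promoter lay below the body with a difference of -1.78. ERCC1 had 15 of 17 body regions called in H3.3 alone, but its body was counted from a start 27274 bases upstream of the RefSeq start. Those body regions therefore include the one at the RefSeq start. Of the ERCC1 RefSeq span, regions called in H3.3 alone covered 41.5% and regions called in both 34.1%.

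**Figure D3:**
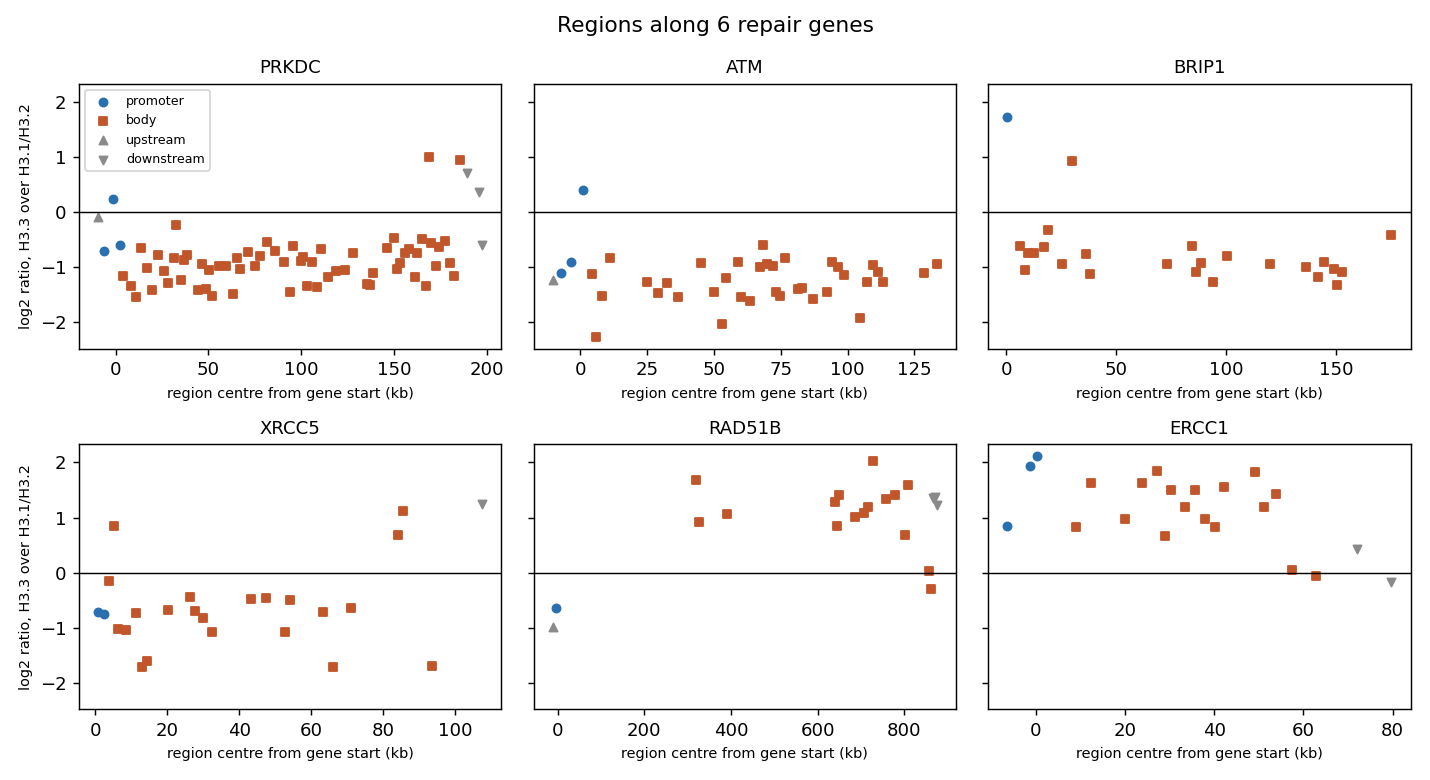
Log2 of H3.3 relative to H3.1/H3.2 (y axis) of every region assigned to 6 repair genes, by the distance of the region's centre from the gene's start in kb (x axis), with circles for promoter, squares for body and triangles for upstream and downstream regions. In PRKDC 61 of 63 body regions and in ATM all 36 lie below 0, while 15 of 16 in RAD51B lie above it.

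The gene starts of the authors' table set which regions count as promoter or body, and they were compared with RefSeq starts for the 42 members found in the promoter table. The starts differed by at most 1000 bases in 38 of them. In ERCC1 the authors' start lay 27274 bases upstream of the nearest RefSeq start, beside FOSB and RTN2, so the region taken as its promoter was not at that RefSeq start. The region at the RefSeq start, which holds a CpG island, counted as body. It had heights of 2.06 and 10.05 and a log2 ratio of 1.85, the highest among the ERCC1 body regions. In MRE11A it lay 18342 bases upstream, and the region over the RefSeq start, which holds a CpG island and is shared with ANKRD49, counted as body. That region had heights of 5.36 (H3.1/H3.2) and 14.2 (H3.3), a log2 ratio of 1.25, while both other MRE11A regions lay below 0. RAD51B and CHEK1 differed by 3762 and 1304 bases. With RefSeq starts the members' medians were 0.52 at 46 promoters and -0.85 in 40 bodies.

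How much of a gene was called varied widely. Called regions covered a median of 31.6% of a member's RefSeq span, from none of the 142329 bases of WRN and 0.921% of RAD50 to all of FANCG. Regions called in H3.1/H3.2 alone covered more of the span than regions called in H3.3 alone in 33 of 47 members (70.2%). Among genes of 32836 to 97884 bases, the middle range of the members' lengths, this held for 18 of 23 members (78.3%), all of which had a region, and for 49.6% of the 3678 protein-coding genes with a region. Over all 4947 such genes, of which 1269 had no region and could not count, it was 36.9%. XRCC2, at 75.2%, PRKDC, at 54.2%, and ERCC3, at 55.4%, were covered most by H3.1/H3.2 alone. WRN, the Werner helicase gene, had 1 region, downstream, with a log2 ratio of -1.27.

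**Figure D4:**
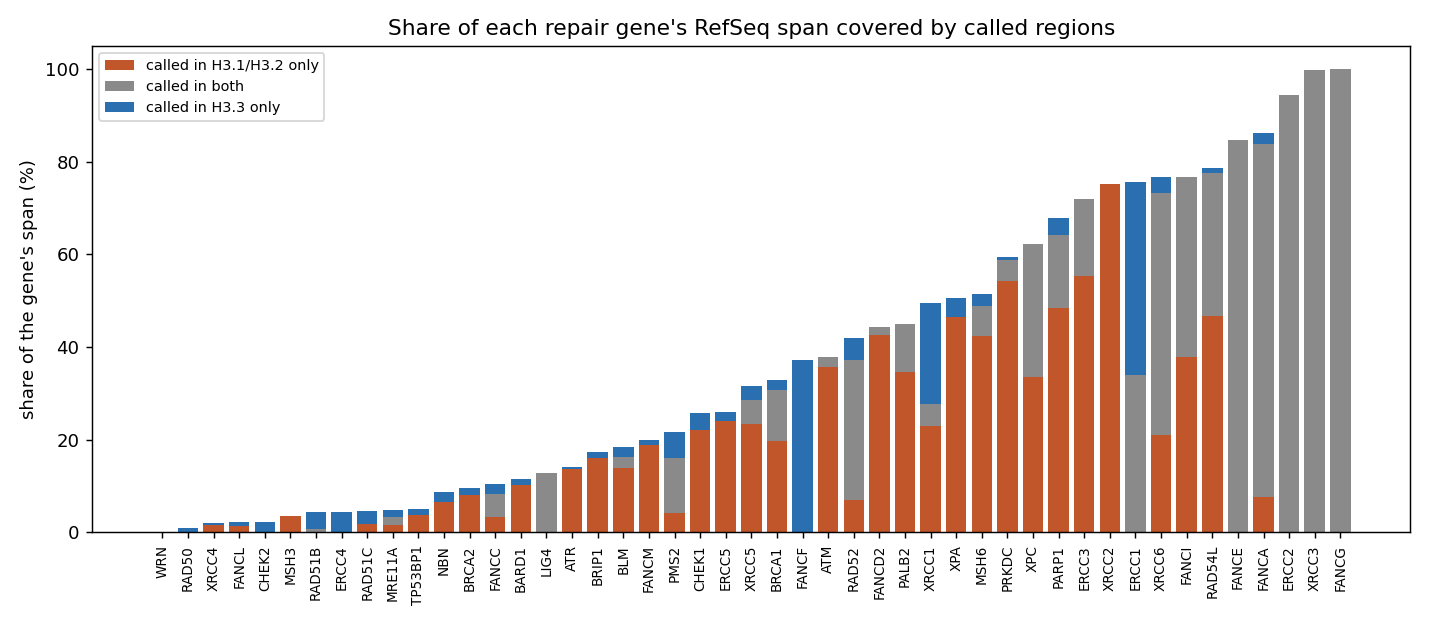
Share of each repair gene's RefSeq span (y axis, %) covered by regions called in H3.1/H3.2 alone, in both ChIPs or in H3.3 alone (stacked bars), with genes ordered along the x axis by their total. Totals run from 0 in WRN to 100% in FANCG, and FANCG, XRCC3 and ERCC2 were covered mostly by regions called in both.

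Most member promoters held a CpG island, in 41 of 45 regions (91.1%) against 73.5% of all genes. Without an island were CHEK2, RAD51B, ERCC2 and ERCC1. A promoter window of another gene overlapped the region in 26 of 45 members (57.8%), against 54.2% of all genes, and the median log2 ratio was 0.49 in these and 0.63 in the other 19. Such a region is a single measurement for both genes. Promoter regions called in H3.3 alone numbered 22 of 45 (57.6% of all genes), in both 16 (31.3%) and in H3.1/H3.2 alone 7 (11.1%). By counting error alone, 24 members had a fold whose 95% interval exceeded 1 (67.5% of all genes) and 10 had one under 1 (15.2%). Regions shorter than 2000 bases had a median of 1.01 over 28 members and longer ones -0.04 over 17, against 1.04 and 0.69 over all genes.

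Among the 42 RefSeq promoters of members, 45.2% held either E2F form against 9.33% of 27305 promoters in the table, 33.3% held the ETS letters against 10.7% and 69.0% a GC box against 44.6%. The members had a median of 64.0% G and C against 58.3%. Either E2F form stood in 19 of the 42, in 9 of 21 promoters at least 1.5-fold toward H3.3 and in 1 of 8 at least 1.5-fold toward H3.1/H3.2, and the ETS letters in 14, 5 and 4. The other matches lay in promoters outside both groups, and a link between motif and ratio was not tested. NRF1 letters stood in 14.3% of member promoters against 4.67%, CCAAT in 47.6% against 35.7%, and TTTGAA in 9.52% against 15.4%. A match to so few letters is a description of the sequence and not a site.

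Other repair genes also had a promoter median above 0 and a body median below 0. Of 92 further genes listed for the same pathways 87 were in the table. Their 82 promoters had a median log2 ratio of 0.37 (0.19 to 0.79), with 36 at least 1.5-fold toward H3.3 (43.9%, against 63.8% of all genes) and 10 toward H3.1/H3.2 (12.2%, against 11.8%). Their 61 bodies had a median of -0.77 (-0.84 to -0.49), with 38 toward H3.1/H3.2 (62.3%, against 36.4%) and 10 toward H3.3 (16.4%, against 43.0%). At promoters the highest were PMS1, a partner in mismatch repair (5.48-fold, 3.17 to 10.3), and NHEJ1, which supports the end-joining ligase (5.52-fold, 2.67 to 11.7). The lowest were CETN2, a subunit of the XPC complex (0.343-fold, 0.225 to 0.503), and the gap-filling polymerase POLL (0.413-fold, 0.318 to 0.528).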

How the data were processed

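Per the labels, single-end reads of 75 nt came from 1 library per antibody and from input, which was not analysed here. The submitters' processing notes name BWA, SICER and hg38 without versions or settings. The deposited table holds, per the file headers, the pileup signal of each ChIP as mean and highest height over merged regions, and the authors' log2 ratio, which matched the mean heights to within 8.9e-16. Its tags equal height times length over 224, which gave 5897938 H3.1/H3.2 and 7332516 H3.3 tags in regions. Whole-library depth is unknown.

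The 4 regions on chromosome Y were left out. A promoter region overlapped 7500 bases upstream to 2500 downstream of a start, which gave the authors' mark in 100% of 36810 regions with 1 gene. The log2 values used a pseudocount of 1, which understates low regions, and folds and the 1.5-fold threshold are plain ratios. Fold intervals are exact conditional 95% intervals on tags, median intervals exact binomial order statistics for at least 6 values. They cover counting error or spread over genes only. If heights had been scaled before deposit, tag intervals would be off. Coordinates of regions are those of the deposited table. Distances are to the region's nearest edge unless its centre is named.

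Members, classes, lists and the rule for named genes were chosen with earlier results of these data known. Every member could be named, with full values for the highest and lowest promoter of a class, for those 1.5-fold toward H3.1/H3.2 and for the 3 largest promoter and body differences each way. RefSeq tables (GRCh38.p14) matched 47 members by gene and 42 by promoter. Calculations used Python 3.11.15, pandas 2.3.3 and SciPy 1.17.1 and were tested on simulated data.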

Additional observations from a re-analysis of the deposited data

How the results depend on the processing

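Alternatives were pseudocounts of 0.1 and 10, highest heights, a minimum length of 1000 bases, summed heights above the 25th percentile, averages over all regions of a gene, promoter regions within 1000 bases of the start, centring on regions called in both, each region once, and a fold of 2. RefSeq starts and at least 3 body regions per gene were added after the data were seen. Of 160 recomputed values 143 stayed within the interval or range over genes, or within 1.5 times for a count. This tally includes settings that could not change any value. Counting each region once was one, since no region belonged to more than 1 member. Promoter regions within 1000 bases was another, since no nearest promoter region lay over 894.5 bases from its start. Among these 143, 2 changed sign within wide intervals: the Fanconi anaemia promoter median was -0.14 with regions of at least 1000 bases, and that of end joining 0.47 with highest heights. The promoter median of all members was 0.28 with regions of at least 1000 bases, with an interval (-0.21 to 0.63) that held 0, as it also did with RefSeq starts, summed heights above the 25th percentile and averages over all regions. The centring shifted ratios by 0.02.

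With a pseudocount of 10, which shrinks every ratio, the body median was -0.38 over all members, -0.38 in homologous recombination, -0.35 in mismatch repair and -0.41 in end joining, the mismatch repair promoter median 0.33 and the promoter minus body difference 0.59. Counts past 1.5-fold on that scale were 14 toward H3.3 and 0 toward H3.1/H3.2 at promoters, and 0 and 1 in bodies. With a pseudocount of 0.1 the body median of homologous recombination was -1.11. With peak heights the mismatch repair promoter median was 0.94. Averaged over all promoter regions it was -0.0096 and that of all members 0.19, since flanking regions enter. At a fold of 2, 3 members leaned to H3.1/H3.2 at promoters. With regions of at least 1000 bases, or at least 3 per body, 2 bodies leaned to H3.3, since fewer genes enter. No paired analysis was possible because there was 1 library per antibody. Depth limits small regions: the intervals of FANCA (10 and 21 tags) and RAD54L (6 and 14 tags) held 1.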
